A study of Oryza sativa with 48 samples.

Results

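The 5 genes described here belong to proline metabolism in rice and are not all of its genes. They were chosen by identifier, with no threshold on any measured value: P5CS1 (OS05G0455500), P5CS2 (OS01G0848200), P5CR (OS01G0948400), proline dehydrogenase (ProDH, OS10G0550900) and ornithine aminotransferase (OAT, OS03G0643300), out of 37830 genes in the count table. RNA was sequenced from leaves of the rice cultivar M202, which lacks the submergence tolerance gene SUB1A, and of M202(Sub1), the near-isogenic line that carries it. All plants grew in pots in a greenhouse. Leaves were taken before submergence (day 0) and after 1, 3 or 6 days of complete submergence, and were divided into the fifth leaf, which was elongating, and the older leaves below it, which were not. Each of the 16 groups of genotype, leaf type and day had 3 independent biological replicates, 48 libraries in all. Leaves kept in air for 1, 3 or 6 days are not among these groups, so submergence cannot be told apart from the passing of days in a comparison with day 0. SUB1A itself was not analysed here.

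Plants make proline mainly from glutamate. P5CS (pyrroline-5-carboxylate synthetase) carries out the first and rate-limiting step, to pyrroline-5-carboxylate (P5C), and P5CR (P5C reductase) reduces P5C to proline. OAT forms P5C from ornithine, which arginase releases from arginine. ProDH oxidises proline back to P5C in mitochondria. Proline accumulates in many plants under drought and salt stress, and in Arabidopsis ProDH transcripts are known to be low in stressed tissue and high in tissue supplied with proline.

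Libraries held 4873142 to 10369501 counts (median 6854259.5), and replicates correlated across genes at 0.9596 to 0.9809. All 5 genes passed the filter on low counts. Levels are CPM, counts scaled to library size with TMM factors, given for replicates 1, 2 and 3, and they are not divided by gene length, so levels do not rank one gene above another. Ratios between genes are given only for how they vary across libraries. Differences are log2 values with their SE from edgeR's quasi-likelihood fit of all 16 groups, called at a Benjamini-Hochberg adjusted p under 0.05 over all 21453 tested genes. Alcohol dehydrogenase ADH1, a fermentation gene used to check the submergence labels, rose in all 12 comparisons with day 0. Such comparisons do not check the genotype labels. The summed level of 3 leaf marker genes, RCA, CAB1R and CAB2R, was 7850 to 18100 CPM over the day 0 libraries and 2360 to 6320 CPM over the submerged ones. RCA fell in all 12 comparisons, with log2 changes of -4.31 to -0.95, and CAB1R and CAB2R in 8 each, with log2 changes of -1.14 to 0.37 and of -2.29 to -0.17. The summed level of 4 root markers stayed at or under 6.4 CPM and that of the meristem marker OSH1 at or under 0.559 CPM. The part of these marker levels in the results was not tested. In such tissue samples, fewer cells of a type and less RNA per cell cannot be told apart.

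Under water the levels of both P5CS genes moved apart. P5CS1 rose in each leaf type of each genotype on each submerged day, while P5CS2 and ProDH fell in all 12 comparisons. P5CR fell in 7 comparisons and OAT rose in 5. Together 48 of the 60 values of 5 genes in 12 comparisons were called, 17 higher and 31 lower. In non-elongating leaves on days 1, 3 and 6, the share of all tested genes called was 52.5, 51.2 and 53.4% in M202 and 56, 52.3 and 51% for M202(Sub1). In elongating leaves it was 53.8, 49.9 and 53.5% in M202 and 55.3, 52.6 and 53.3% for M202(Sub1). Over the 12 comparisons together 26.8% of values were called higher and 26.1% lower. In each of the 12 comparisons the median log2 change of the 5 genes was that of P5CR. P5CS1 and OAT lay above it and P5CS2 and ProDH below it. This median, between -0.901 and -0.192, thus describes P5CR and not a common shift of the 5 genes. The median of all tested genes lay between -0.024 and 0.0598. The 3 comparisons of a leaf type and genotype share their day 0 libraries.

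**Figure D1:**
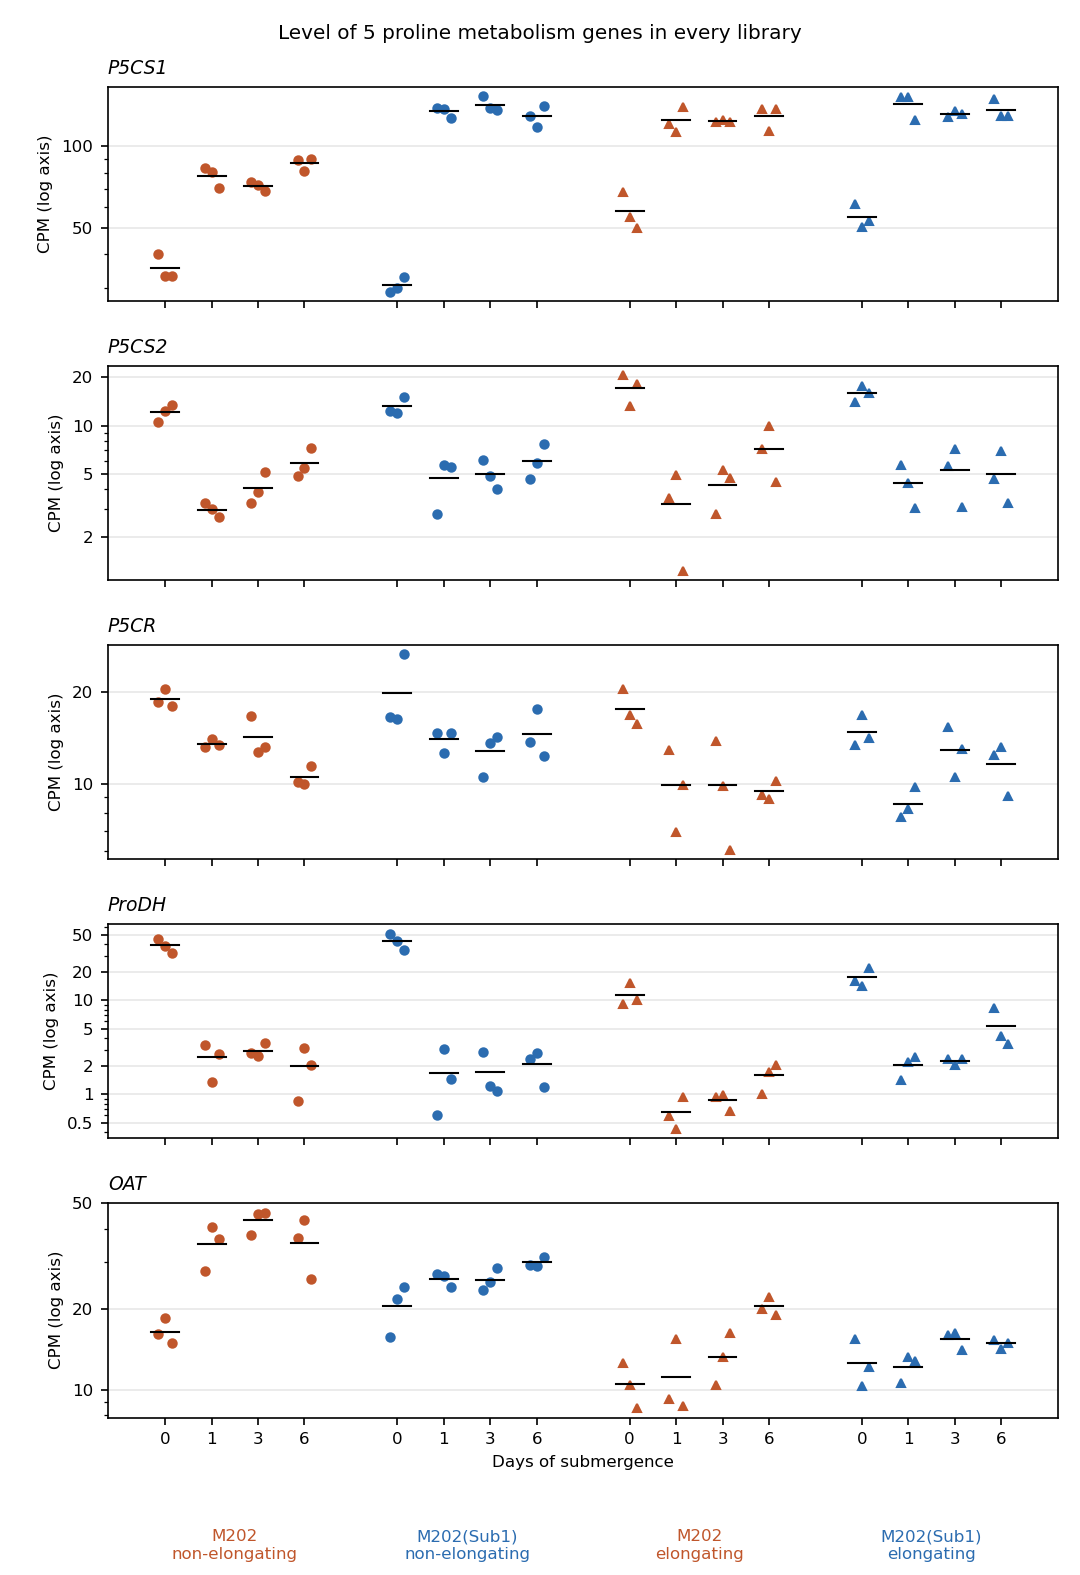
Level of each gene (CPM, log scale) in every library by day of submergence, with points for libraries (circles for non-elongating, triangles for elongating leaves) and bars for the mean of 3. P5CS1 lay at 29.2 to 68.1 CPM at day 0 and 68.8 to 153 CPM under water, while ProDH went from 9.25 to 51.6 CPM down to 0.432 to 8.3 CPM.

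P5CS1, a synthetase gene known from rice and other plants as stress-induced, showed its lowest levels in non-elongating leaves at day 0. The replicates there were at 40.2, 33.4 and 33.2 CPM in M202 and at 29.2, 30.2 and 32.9 CPM in M202(Sub1). In M202 they stood at 83.4, 80.8 and 70.1 CPM on day 1, at 74.2, 71.9 and 68.8 CPM on day 3 and at 89.1, 81.2 and 90.1 CPM on day 6. In M202(Sub1) the same leaves reached 139, 138 and 127 CPM on day 1, 153, 139 and 136 CPM on day 3 and 130, 118 and 141 CPM on day 6. All submerged replicates thus lay above those of day 0, and those of M202(Sub1) lay above those of M202 on each submerged day. The change from day 0 was 1.13 ± 0.12, 1.00 ± 0.12 and 1.28 ± 0.12 (log2, SE) on days 1, 3 and 6 in M202. It was 2.13 ± 0.12, 2.21 ± 0.12 and 2.07 ± 0.12 in M202(Sub1), above the change of 91.6 to 91.9% of tested genes. The adjusted p of edgeR's quasi-likelihood test was at most 4.32e-10 in all 12 comparisons of P5CS1 with day 0.

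In elongating leaves P5CS1 started higher. Day 0 replicates were at 68.1, 55 and 49.9 CPM in M202 and at 61.3, 50.5 and 53 CPM in M202(Sub1). Under water they lay between 113 and 140 CPM in M202 and between 125 and 152 CPM in M202(Sub1), with the genotypes overlapping on days 1 and 6. The change from day 0 was 1.12, 1.11 and 1.18 (log2) in M202 and 1.38, 1.26 and 1.31 for M202(Sub1), each with an SE of 0.11. Over the whole set, each of the 36 submerged libraries had more P5CS1 than any of the 12 day 0 libraries, although the margin was narrow, 68.8 against 68.1 CPM.

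P5CS2, the second synthetase gene, went the opposite way. At day 0 its replicates were at 10.6, 12.3 and 13.4 CPM in M202 non-elongating leaves, and at 20.6, 13.2 and 18.1 CPM in elongating ones. In M202(Sub1) they were at 12.3, 12 and 15.1 CPM and at 14, 17.8 and 16.1 CPM. All 36 submerged libraries, at 1.24 to 9.91 CPM, lay below all 12 day 0 libraries, at 10.6 to 20.6 CPM. The fall from day 0 was largest in elongating M202 leaves on day 1, at 3.55, 4.89 and 1.24 CPM (log2 change -2.39 ± 0.33, adjusted p = 2.91e-08 by edgeR). It was smallest in non-elongating M202 leaves on day 6, at 4.86, 5.47 and 7.25 CPM (-1.05 ± 0.31, adjusted p = 0.00377 by edgeR). These are small counts, 8 to 128 per library, and their spread is wide, with a median coefficient of variation of 24.1% within groups against 9% for P5CS1. As a share of the counts of both P5CS genes, P5CS2 made up 18.6 to 31.5% in day 0 libraries and 0.875 to 7.99% in submerged ones, a share with no correction for gene length and so read for its change only. The synthetases are close paralogues, and reads that could come from either are not resolved by the counts.

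P5CR, the reductase gene, had smaller log2 changes than the synthetases. Its replicates were at 18.5, 20.4 and 17.9 CPM in non-elongating M202 leaves at day 0 and at 10.1, 9.95 and 11.4 CPM on day 6 (log2 change -0.85 ± 0.21, adjusted p = 0.000721 by edgeR). In elongating M202 leaves it went from 20.4, 16.8 and 15.7 CPM to 9.16, 8.87 and 10.2 CPM on day 6 (-0.90 ± 0.22, adjusted p = 0.000441 by edgeR). Neither pair of groups overlapped. P5CR was lower on 5 of 6 submerged days in M202, counting both leaf types, and on 2 of 6 in M202(Sub1), but no difference between the genotypes' changes was called (adjusted p of 0.261 to 1). In M202(Sub1) the calls were non-elongating leaves on day 3 (-0.63 ± 0.21, adjusted p = 0.0118 by edgeR) and elongating leaves on day 1 (-0.78 ± 0.22, adjusted p = 0.00278 by edgeR). The first of these is lost without M202(Sub1) non-elongating day 0 replicate 3, the highest P5CR library at 26.5 CPM, or without day 3 replicate 1 (adjusted p up to 0.183). In non-elongating leaves on day 1 the genotypes had nearly the same value on either side of the threshold, -0.48 ± 0.21 in M202 (adjusted p of 0.05 when rounded, called) and -0.49 in M202(Sub1) (adjusted p = 0.0508 by edgeR, not called). The M202 call holds in 3 of 7 alternatives and is lost when any of the 6 libraries compared is left out (adjusted p of edgeR up to 0.132). The M202(Sub1) value is called in 3 of the 7 and without day 0 replicate 1 or 2, and the value of day 6 (-0.44, adjusted p = 0.0806 by edgeR) without day 0 replicate 1 or 2 or day 6 replicate 2. The counts of 5 and 2 days are therefore not a measured difference between the genotypes. At an unadjusted p under 0.05, 1 of the 6 differences between the genotypes' changes of P5CR passed, and DESeq2 called none.

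OAT, the gene of the ornithine route, rose on each submerged day in non-elongating M202 leaves. Its replicates there were at 16.1, 18.5 and 14.9 CPM at day 0, at 27.9, 40.7 and 36.7 CPM on day 1, at 37.8, 45.4 and 46 CPM on day 3 and at 37, 43.3 and 25.9 CPM on day 6. Each submerged library was above each of day 0, and the log2 changes were 1.09 ± 0.19, 1.38 ± 0.19 and 1.10 ± 0.19 (adjusted p of edgeR at most 2.73e-06). In the same leaves of M202(Sub1), OAT was at 15.8, 21.8 and 24.3 CPM at day 0 and at 29.4, 29 and 31.5 CPM on day 6. That day gave the only call there (0.54 ± 0.19, adjusted p = 0.0126 by edgeR), and it is lost without day 0 replicate 1, the lowest of its group (adjusted p = 0.12). Days 1 and 3 gave 0.34 ± 0.19 and 0.33 ± 0.19, not called. In elongating leaves OAT was called on day 6 of M202, when replicates were at 20, 22.2 and 19.1 CPM against 12.6, 10.4 and 8.55 CPM at day 0 (0.97 ± 0.20, adjusted p = 6.18e-05 by edgeR). In elongating M202(Sub1) leaves 0 of 3 days were called by edgeR or DESeq2, with 0 at an unadjusted p under 0.05 and log2 changes of -0.04 to 0.30.

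ProDH, which opens proline breakdown, had the largest falls of the 5 genes. In non-elongating leaves its replicates were at 45, 38.4 and 32.3 CPM in M202 and 51.6, 43 and 34.2 CPM in M202(Sub1) at day 0. On day 1 they were at 3.4, 1.36 and 2.68 CPM and at 0.598, 3.06 and 1.47 CPM. The log2 change in these leaves lay between -4.28 and -3.72 over the 3 days in M202 and between -4.65 and -4.33 in M202(Sub1). In these 6 comparisons 1.8 to 2.43% of the tested genes had a lower log2 change. In elongating leaves ProDH was already lower at day 0, at 9.25, 15.3 and 10.1 CPM in M202 and 16.3, 14.4 and 22.4 CPM in M202(Sub1). Its log2 change there was -4.14, -3.72 and -2.88 on days 1, 3 and 6 in M202 and -3.07, -2.94 and -1.73 for M202(Sub1). All 36 submerged libraries, at 0.432 to 8.3 CPM, lay below all 12 day 0 libraries, at 9.25 to 51.6 CPM. Counts under water went down to 3 in a library, which leaves the submerged levels imprecise, with SE of 0.31 to 0.54 on the log2 changes.

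**Figure D2:**
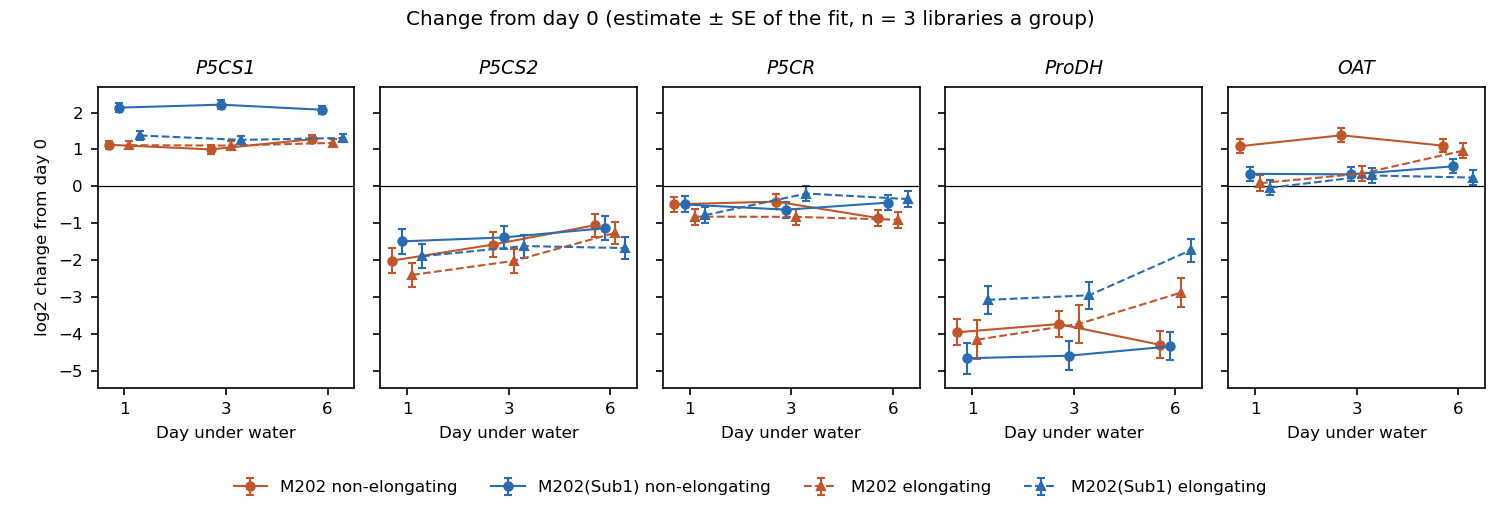
Log2 change from day 0 with its SE for each gene on days 1, 3 and 6, by genotype and leaf type. P5CS1 lay above 0 in all 12 comparisons, between 1.00 and 2.21, and P5CS2 and ProDH lay below 0 in all 12, down to -2.39 and -4.65.

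P5CS1 and ProDH, which stand at the start of synthesis and of breakdown, moved in opposite directions. The log2 ratio of P5CS1 to ProDH counts within a library ran from -0.819 to 2.88 at day 0 and from 4.18 to 8.03 under water, with no overlap. The ratio carries no correction for gene length, so its changes and not its level can be read. In non-elongating leaves on day 1 its mean was 5.07 ± 0.713 (SD, n = 3) in M202 and 6.6 ± 1.19 in M202(Sub1), from -0.106 ± 0.129 and -0.463 ± 0.382 at day 0. In elongating leaves M202 had the higher mean on all 4 days. It was 2.34 ± 0.519 in M202 and 1.65 ± 0.361 in M202(Sub1) at day 0, and 6.4 ± 0.597 and 4.79 ± 0.548 on day 6. The log2 ratio of OAT to P5CS1 ran from -2.55 to -0.438 at day 0 and from -4.02 to -0.582 under water. In non-elongating M202 leaves it stood at -1.11 ± 0.236 at day 0. On days 1, 3 and 6 it was at -1.17 ± 0.359, -0.739 ± 0.207 and -1.33 ± 0.448. In the same leaves of M202(Sub1) it stood at -0.599 ± 0.253 at day 0. There it was at -2.37 ± 0.0132, -2.47 ± 0.222 and -2.11 ± 0.0774 on days 1, 3 and 6. These ratios are descriptions and were not tested.

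**Figure D3:**
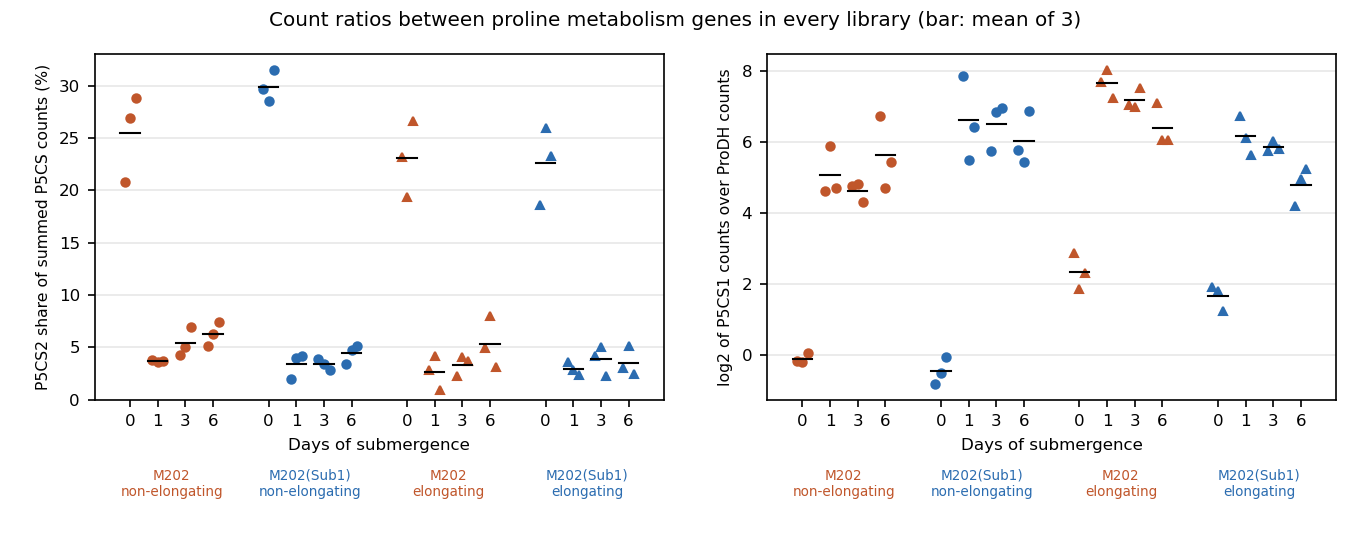
Share of P5CS2 in the summed P5CS counts (%, left) and log2 ratio of P5CS1 to ProDH counts (right) in each library by day, with bars for the mean of 3. The share was 18.6 to 31.5% at day 0 and 0.875 to 7.99% under water, and the log2 ratio of P5CS1 to ProDH stayed above 4 in all submerged libraries.

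The genotypes were compared within each leaf type and day. Before submergence edgeR called none of the 5 genes in either leaf type, nor did DESeq2. At an unadjusted p under 0.05, 1 of these 10 values passed, ProDH in elongating leaves. Over all 8 comparisons 6 of 40 values were called, 5 higher in M202(Sub1) and 1 lower. On days 0, 1, 3 and 6 the share of all tested genes called was 2.74, 15, 13.8 and 15.3% in non-elongating leaves and 5.3, 20.3, 14.7 and 20.4% in elongating ones. Over the 8 together 6.1% were called higher and 7.35% lower. The calls were P5CS1 and OAT in non-elongating leaves and ProDH in elongating leaves. P5CS2 and P5CR had no call by edgeR or DESeq2, and 1 of their 16 values passed an unadjusted p of 0.05, P5CR in non-elongating leaves on day 6. Whether the change from day 0 differed between the genotypes was tested in 6 comparisons, in which 4 of 30 values were called, 3 higher in M202(Sub1) and 1 lower. There the share of all tested genes called on days 1, 3 and 6 was 5.47, 5.7 and 6.39% in non-elongating leaves and 11.2, 5.63 and 6.39% in elongating ones, together 2.57% higher and 4.22% lower.

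In non-elongating leaves P5CS1 was higher in M202(Sub1) by 0.79 ± 0.11, 0.99 ± 0.11 and 0.58 ± 0.11 (log2) on days 1, 3 and 6. The adjusted p of edgeR's test was 4.78e-07, 1.64e-09 and 0.000118. At day 0 the difference was -0.22 ± 0.12 (adjusted p = 0.467 by edgeR). The change from day 0 was itself larger in M202(Sub1), by 1.00 ± 0.16, 1.21 ± 0.16 and 0.79 ± 0.16 on the 3 days (adjusted p of 3.62e-05, 9.24e-07 and 0.00106 by edgeR). In elongating leaves the genotypes differed in P5CS1 by 0.20, 0.09 and 0.07, each with an SE of 0.11, and neither these nor the differences of the changes were called.

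OAT was lower in non-elongating M202(Sub1) leaves on day 3, at 23.6, 25.2 and 28.6 CPM against 37.8, 45.4 and 46 CPM in M202 (-0.74 ± 0.18, adjusted p = 0.00269 by edgeR). The groups did not overlap. The change from day 0 was smaller by 1.06 ± 0.26 on that day (adjusted p = 0.00874 by edgeR). On days 1 and 6 OAT differed by -0.43 ± 0.18 and -0.24 ± 0.18, not called. At day 0 it differed by 0.32 ± 0.19, the other way (adjusted p = 0.53 by edgeR). The differences of the changes on days 1 and 6 were -0.75 ± 0.27 and -0.56 ± 0.26, not called (adjusted p of 0.0926 and 0.225 by edgeR). Their unadjusted p by edgeR was 0.00718 and 0.0384, and that of the day 1 level was 0.0224. The genotype differences of OAT were not tested between days. On day 3 of non-elongating leaves M202(Sub1) was thus higher in P5CS1 and lower in OAT.

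ProDH was higher in elongating M202(Sub1) leaves on day 6, at 8.3, 4.15 and 3.43 CPM against 1.02, 1.73 and 2.08 CPM in M202 (1.76 ± 0.40, adjusted p = 0.000612 by edgeR). Its groups did not overlap there. On day 1 the values were 1.43, 2.19 and 2.5 CPM against 0.591, 0.432 and 0.929 CPM (1.68 ± 0.58, adjusted p = 0.0225 by edgeR). That call is lost without M202 replicate 1 or 2 or without M202(Sub1) replicate 2 or 3 of that group, and when the counts are divided by 2. On day 3 the groups did not overlap either, at 2.39, 2.08 and 2.38 CPM against 0.929, 0.995 and 0.674 CPM, but the difference was not called (1.38 ± 0.55, adjusted p = 0.0674 by edgeR). At day 0 it was 0.60 ± 0.30 (adjusted p = 0.278 by edgeR). The changes of ProDH from day 0 were not called different between the genotypes in any of 6 comparisons, the lowest adjusted p being 0.174. At an unadjusted p under 0.05, 1 of the 6 passed, elongating leaves on day 6, and DESeq2 called none.

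**Figure D4:**
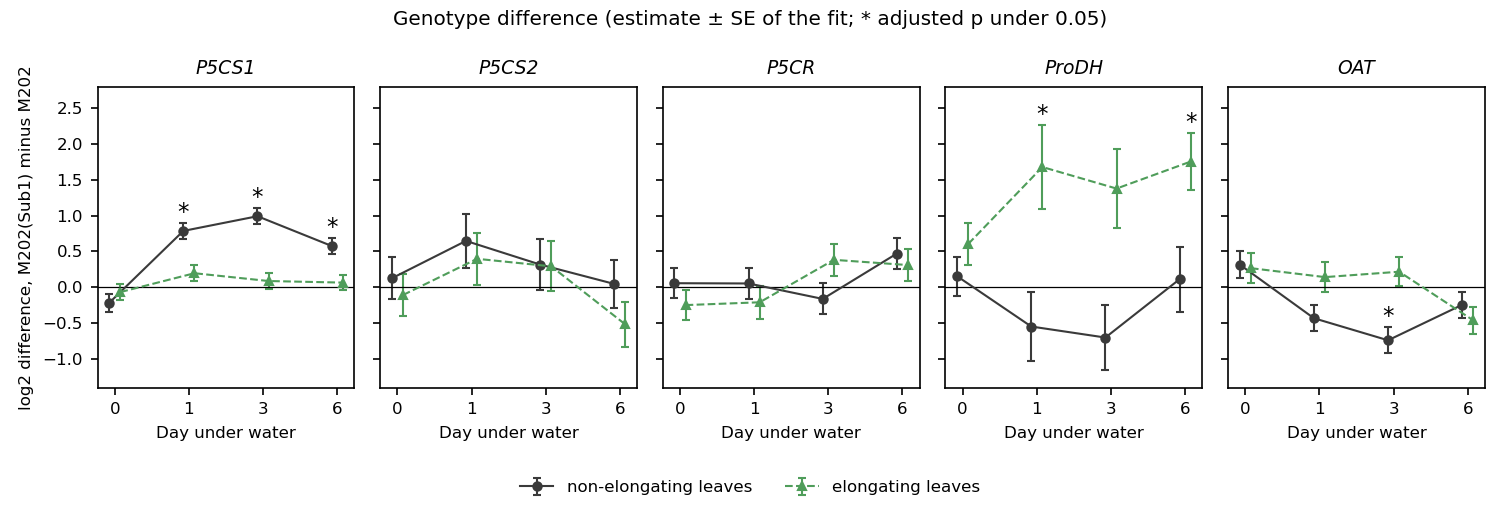
Log2 difference between M202(Sub1) and M202 with its SE for each gene by day, in non-elongating and elongating leaves. P5CS1 stood 0.58 to 0.99 above 0 in submerged non-elongating leaves, and ProDH 1.38 to 1.76 above 0 in submerged elongating leaves, where day 3 was not called.

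The leaf types differed in OAT, P5CS1 and ProDH. Of 40 values, 19 were called, 6 higher and 13 lower in elongating leaves. On days 0, 1, 3 and 6 the share of all tested genes called was 29.5, 40.6, 34.1 and 23.1% in M202 and 29.8, 29.7, 21.4 and 17.8% for M202(Sub1), together 14.1% higher and 14.2% lower. The change from day 0 differed between leaf types in 7 of 30 values, 2 higher and 5 lower in elongating leaves. The share of all tested genes called there on days 1, 3 and 6 was 15.8, 13.7 and 10.4% in M202 and 14, 13.7 and 14.1% for M202(Sub1), together 7.31% higher and 6.32% lower. OAT was lower in elongating leaves in all 8 comparisons, with log2 differences of -1.69 to -0.66. Its widest gap was on day 3 in M202, when elongating replicates at 10.4, 13.3 and 16.3 CPM faced non-elongating ones at 37.8, 45.4 and 46 CPM (-1.69 ± 0.19, adjusted p = 7.71e-10 by edgeR). The day 0 gap in M202 (-0.66 ± 0.21, adjusted p = 0.0129 by edgeR) is lost without non-elongating replicate 2 or elongating replicate 3, or when no other groups enter the fit (adjusted p up to 0.0898). In M202 the rise of OAT from day 0 was smaller in elongating leaves by 1.00 ± 0.28 on day 1 and 1.04 ± 0.28 on day 3 (adjusted p of 0.0106 and 0.00834 by edgeR).

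P5CS1 was higher in elongating leaves at day 0 in both genotypes, by 0.69 ± 0.12 in M202 and 0.84 ± 0.12 in M202(Sub1) (log2). In M202 that difference was 0.67, 0.79 and 0.59 on days 1, 3 and 6, each with an SE of 0.11 and called. In M202(Sub1) it was 0.08, -0.12 and 0.07 on the submerged days, not called, and the replicates of both leaf types overlapped on days 1 and 6 but not on day 3. The change from day 0 in M202(Sub1) was smaller in elongating than in non-elongating leaves by 0.75 ± 0.16, 0.95 ± 0.16 and 0.76 ± 0.16 (adjusted p of 0.000718, 2.39e-05 and 0.000561 by edgeR). In M202 it differed by -0.01, 0.10 and -0.10, each with an SE of 0.16.

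ProDH was lower in elongating leaves at day 0 by 1.73 ± 0.29 in M202 and 1.28 ± 0.28 in M202(Sub1) (log2), and in M202 also on days 1 and 3 (-1.93 ± 0.57 and -1.72 ± 0.54). On day 6 in M202(Sub1) it was higher in elongating leaves, at 8.3, 4.15 and 3.43 CPM against 2.39, 2.74 and 1.21 CPM (1.32 ± 0.41, adjusted p = 0.0129 by edgeR). This call is lost without elongating replicate 1 or non-elongating replicate 3. The fall from day 0 in M202(Sub1) was smaller in elongating leaves by 2.60 ± 0.49 on day 6 (adjusted p = 9.04e-05 by edgeR), a difference above that of 97.6% of tested genes. On day 3 it was smaller by 1.63 ± 0.54 (adjusted p = 0.0315 by edgeR), a call lost in 7 of the 12 fits that leave out 1 library. In M202(Sub1) P5CR was lower in the elongating leaf on day 1, at 7.74, 8.26 and 9.74 CPM against 14.7, 12.6 and 14.7 CPM (-0.70 ± 0.23, adjusted p = 0.0161 by edgeR), a call lost in 3 of 6 such fits. P5CS2 had differences between leaf types of -0.26 to 0.52, and 0 of 8 were called by edgeR or DESeq2, with 0 at an unadjusted p under 0.05.

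Once the leaves were under water, few differences of the 5 genes between successive days were called. Of 40 values for day 3 against day 1 and day 6 against day 3, 2 were called, both higher. The share of all tested genes called for these steps was 16.3 and 29.2% in non-elongating leaves of M202, 16.9 and 7.43% in those of M202(Sub1), 22.3 and 28.3% in elongating leaves of M202 and 13.1 and 13.9% in those of M202(Sub1). Together 9.47% were called higher and 8.95% lower. Day 6 was not tested against day 1. Over that span the mean of P5CS2 went from 2.98 to 5.86 CPM in non-elongating M202 leaves and from 3.23 to 7.15 CPM in elongating ones. In M202(Sub1) it went from 4.67 to 6.01 CPM and from 4.39 to 4.95 CPM. OAT rose from day 3 to day 6 in elongating M202 leaves (0.62 ± 0.20, adjusted p = 0.013 by edgeR). ProDH rose over the same days in elongating M202(Sub1) leaves, from 2.39, 2.08 and 2.38 CPM to 8.3, 4.15 and 3.43 CPM (1.22 ± 0.38, adjusted p = 0.0218 by edgeR). The ProDH call is lost when any 1 of the 3 day 3 libraries, or day 6 replicate 1, is left out, and the OAT call without day 3 replicate 1 or day 6 replicate 2.

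Ordered by group mean, P5CS1 ran from 143 CPM in elongating M202(Sub1) leaves on day 1 to 30.8 CPM in non-elongating M202(Sub1) leaves at day 0, a 4.65-fold range. The 9 groups at the top were all submerged, and each overlapped with the next among them, and the 3 groups of submerged non-elongating M202 leaves followed below them. The range was 66-fold for ProDH, from 42.9 CPM in non-elongating M202(Sub1) leaves at day 0 to 0.651 CPM in elongating M202 leaves on day 1. It was 5.81-fold for P5CS2, 4.09-fold for OAT and 2.3-fold for P5CR. Of the 15 pairs of neighbours in each order, libraries overlapped in 11 for P5CS1, 14 for P5CS2, 15 for P5CR, 12 for ProDH and 13 for OAT. For ProDH the gaps lay between non-elongating and elongating leaves at day 0, between day 0 and submerged leaves, and above the 2 lowest groups, elongating M202 leaves on days 1 and 3.

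Over the 16 group means of log2 CPM, P5CS1 and ProDH had a Pearson r of -0.888 and P5CS2 and ProDH one of 0.839. Over the 12 submerged groups alone the values were -0.212 and 0.244. P5CS1 and OAT had r = 0.00574 over 16 groups and -0.689 over the submerged 12, and P5CR and OAT 0.147 and 0.699. All of these share libraries, depth and scaling, and they are given as descriptions. Among genes with a mean of at least 10 CPM, the pattern most like that of P5CS1 over the 16 groups was that of OS04G0683900 (r = 0.971), followed by OS02G0232500 and OS04G0330900 (0.969 and 0.966). The closest to P5CS2 was OS01G0367900 (0.967), to ProDH OS04G0412100 (0.969), to OAT OS10G0389200 (0.969) and to P5CR OS03G0599800 (0.903).

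A list of 8 other genes of proline and ornithine metabolism and transport, all of them tested, gave 96 values against day 0, of which 21 were higher, 54 lower and 21 not called, where 26.8% of all tested values were higher and 26.1% lower. The symbols of arginase and a proline transporter stand in the RefSeq table on the chromosome of the identifier, and the other genes are given by identifier. Arginase (ARG, OS04G0106300), which releases ornithine for OAT, was at 12.1, 16.9 and 13.4 CPM in non-elongating M202 leaves at day 0 and at 19.2, 12.6 and 18 CPM on day 6. The values of M202(Sub1) were 16.1, 21 and 17.7 CPM before and 7.85, 9.99 and 4.85 CPM on day 6. The groups overlapped in M202 and were apart in M202(Sub1). ARG fell in 5 of 12 comparisons with day 0, namely all 3 in non-elongating M202(Sub1) leaves and days 1 and 3 in elongating ones, and each of the latter calls is lost in 4 of 6 fits that leave out 1 library. In non-elongating leaves its change was lower in M202(Sub1) than in M202 by 1.16 ± 0.31, 1.33 ± 0.31 and 1.51 ± 0.32 on days 1, 3 and 6 (adjusted p of 0.0171, 0.00495 and 0.00137 by edgeR). The day 1 value is lost without M202 day 0 replicate 1 or M202(Sub1) day 0 replicate 2 (adjusted p up to 0.0602). In elongating leaves that difference was not called. The proline transporter gene OS03G0644400 fell in 7 of 12 comparisons, with log2 changes of -1.04 to 0.13. OS01G0908600 and OS07G0100800 fell in all 12, by 2.46 to 5.50 and by 1.98 to 4.34. OS02G0700600 and OS05G0536400 fell in 10 and 8, and OS12G0235800 and OS03G0305500 rose in 11 and 10.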

How the data were processed

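The authors deposited raw counts per gene for 48 libraries of total RNA, sequenced in pairs of reads. Per the submitters' processing notes, STAR, featureCounts and DESeq2 were used with the IRGSP-1.0 assembly, with no versions given. Of the nonzero counts of a library, 62.3 to 73.8% were even, as when the reads of a pair are counted separately, and dividing the counts by 2 was an alternative. All value columns were used.

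Counts were tested with edgeR 4.0.16 in R 4.3.3 in 1 fit of all 16 groups (32 residual degrees of freedom, common biological coefficient of variation 0.152). Steps were filterByExpr (minimum count 10, minimum total 15), TMM scaling and quasi-likelihood F tests, two-sided, adjusted by Benjamini-Hochberg over 21453 genes at 0.05. Levels are CPM and are given as values per replicate. Errors cover the spread of these replicates, and the counts carry counting error. The procedure was also run on simulated data with 200 changed genes. That is far fewer than were called here against day 0, so the run does not measure its errors on these data.

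There were 48 comparisons: 12 with day 0, 8 between genotypes, 8 between leaf types, 8 between successive submerged days, and 12 differences of changes. As alternatives, the scaling was changed to RLE or upper-quartile factors, the filter was dropped, the replicate number entered as a block, counts were divided by 2, the fit held only the groups compared, DESeq2 1.42.0 replaced edgeR, and each library was left out. The fits that leave out a library refit means and quasi-dispersions and keep the tested genes, TMM factors and dispersion trend of the full fit.

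The genes and lists were chosen with earlier results of these data known. The rule for names took the 5 genes, the list of 8 related genes, 3 genes most alike per member (Pearson r over group means of log2 CPM, prior count 2) and check genes. The RefSeq table used is of another assembly. It holds the symbols of P5CS1, P5CS2 and OAT on the chromosome of the identifier. The order among listed genes of a chromosome also matched for P5CS2 and OAT and could not be assessed for P5CS1 or ARG. P5CR and ProDH keep the names of the selection. Sequences were not used here.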

Additional observations from a re-analysis of the deposited data

Results flagged for a closer look

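The closer look took the 5 genes and, of the 8 list genes, ARG alone, which was picked by name. It is thus not a full tally, and the calls of the other list genes are counted below. In 14 cases, 11 of the 5 genes and 3 of ARG, the change from day 0 differed between genotypes or leaf types. Each was called by a test of the difference itself (edgeR's quasi-likelihood test, Benjamini-Hochberg adjusted). Between genotypes 4 of 30 values of the 5 genes were called, with 2.57% of all tested values higher and 4.22% lower. Between leaf types 7 of 30 were called, with 7.31% of all tested values higher and 6.32% lower. Of the 8 list genes, 6 of 48 values were called between genotypes, 3 of ARG and 1 each of OS02G0700600, OS01G0908600 and OS07G0100800. Their differences between leaf types gave 12 calls of 48, none of ARG. These were 3 each of OS02G0700600, OS01G0908600 and the transporter gene OS03G0644400, 2 of OS12G0235800 and 1 of OS07G0100800. For P5CS1 the change in non-elongating leaves was larger in M202(Sub1) than in M202 by 1.00, 1.21 and 0.79 (log2) on days 1, 3 and 6. For OAT the change in the same leaves was lower in M202(Sub1) on day 3 (-1.06). Within M202, the change of OAT was lower in elongating than in non-elongating leaves on day 1 (-0.9997) and day 3 (-1.04). Within M202(Sub1), the change of P5CS1 was lower in elongating leaves on days 1, 3 and 6 (-0.75, -0.95 and -0.76). The change of ProDH was less negative there on day 3 (1.63) and day 6 (2.60). As given above, the day 3 call of ProDH is lost in most fits that leave out 1 library. For arginase (ARG), the change in non-elongating leaves was lower in M202(Sub1) than in M202 on days 1, 3 and 6 (-1.16, -1.33 and -1.51). Its day 1 call is lost in some fits that leave out 1 library, also given above. The genotype and leaf type results of P5CS1 share the non-elongating M202(Sub1) libraries, and those of OAT share the non-elongating M202 libraries. The causes were not tested. Groups of 3 replicates are too small for a test of single outlying libraries.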

How the results depend on the processing

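Of 240 values (5 genes in 48 comparisons), 237 kept their call (higher, lower or none) under RLE scaling, under upper-quartile scaling, without the filter and with counts divided by 2. DESeq2 kept 239, and the fit of only the groups compared kept 232 of 236, with ProDH filtered out of 4 of those fits. No called value reversed in any alternative or left-out library. In their deviations from group means, same-numbered libraries of compared groups correlated at -0.151 to 0.157, with 9 of 108 over 0.1. Of 48 libraries, 21 were closest on average to their own number. The check pools comparisons of days, genotypes and leaf types, so it cannot settle whether leaf types were paired by plant. With the replicate block 238 of 240 values were kept: P5CR in non-elongating M202 leaves on day 1 lost its call (log2 change -0.48, adjusted p = 0.054 by edgeR) and P5CS1 there from day 3 to day 6 gained one (0.28, adjusted p = 0.044 by edgeR). Leaving out 1 library kept 1748 of 1800 values, with 33 calls lost and 19 gained. The 48 calls against day 0 became 47 to 50, the 6 between genotypes 5 to 7, the 19 between leaf types 18 to 20, and the 2 between successive submerged days 1 to 3. With 1 library left out, the 4 genotype differences of the change became 4 to 5 and the 7 leaf type ones 6 to 8. Across the other alternatives the 6 genotype calls became 5 to 8 and the 19 leaf type calls 17 to 20. The differences of the change stayed at 4 between genotypes and became 7 to 8 between leaf types. Calls against day 0 became 47 to 49 there, and those between successive submerged days 2 to 3. The causes were not tested. Of the 8 list genes and ADH1, 411 of 429 to 428 of 432 values were kept across the alternatives, and 3089 of 3240 when 1 library was left out. Low counts of ProDH and P5CS2 under water limit differences among submerged groups.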
